A study of Mus musculus with 8 samples.

Results

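The cell cycle and mitotic genes described here are 48 genes of DNA replication, mitotic kinases, kinesins, spindle and centromere proteins, measured by RNA-seq in mouse lung among 24584 genes in all. They were selected by gene symbol, as a functional group, with the measured difference between the LPS + Tan and LPS groups already in view. Their values in that contrast are therefore given as a description and were not tested as a group. All 48 were found in the count and FPKM tables, and 48 of 48 passed the filter on low counts, which kept 15706 genes.

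Lung tissue came from 2 groups of 4 samples, all of male ICR mice 6 to 8 weeks old and labelled as wild type. The LPS group received lipopolysaccharide, the endotoxin of Gram-negative bacteria, by intraperitoneal injection at 5 mg/kg, and the lungs were taken 12 h later. The LPS + Tan group received the same LPS and, 30 min before it, tangeretin, a flavonoid of citrus peel, at 50 mg/kg. Both groups thus carry the LPS challenge, and since neither untreated lungs nor lungs after tangeretin without LPS were analysed here, the comparison concerns tangeretin in the presence of LPS. The labels number the samples within each group and do not say outright that each is a separate animal, so the errors and p-values describe the spread between these samples.

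The cell cycle is driven by cyclins and cyclin-dependent kinases. In late G1, E2F factors and cyclin E switch on the genes of DNA replication, whose products load the MCM helicase on origins and supply deoxynucleotides. In G2 and mitosis, cyclin A, cyclin B and Cdk1 act with the Aurora and Polo kinases, kinesins and the centromere to build the spindle and separate the chromosomes. Genes of the second wave are commonly repressed in resting cells through promoter elements called CDE/CHR and activated through CCAAT boxes, whereas many replication genes carry E2F sites. Most cells of the adult lung are at rest, and dividing endothelial, epithelial and immune cells can contribute these transcripts.

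The total count per sample lay between 38895654 and 39931970, so depth was nearly equal, and the 48 genes took between 0.0666 and 0.0945% of the counts of a sample. The lowest count of any of the 48 genes in any sample was 62. Lung markers were present in every sample, with a summed level between 776 and 1007 FPKM for alveolar type 1 cells, between 5372 and 10220 FPKM for alveolar type 2 cells and between 1028 and 1210 FPKM for endothelium. Within a group, the counts of sample pairs had a median squared deviation 8.39 to 26.7 times that of sampling noise, so none was 1 library sequenced again. This does not show that the samples are separate animals. In bulk tissue, fewer cells of a type and less RNA per cell cannot be told apart.

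Most of the 48 genes had a slightly higher mean level in LPS + Tan than in LPS lungs, by differences that for all but Cdt1 left the samples of both groups overlapping. The fitted log2 fold change of LPS + Tan over LPS was above 0 for 43 of the 48 genes (89.6%), compared with 51.8% of all tested genes. Its median was 0.12 over the 48 genes and 0.007 over all tested genes, and the values ran from -0.08 for Kif18b to 0.51 for Cdc6. The 5 genes below 0 were Mcm4, Mcm7, Foxm1, Kif18b and Cenpf. These counts describe genes selected with the contrast in view.

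At an unadjusted p below 0.05 in edgeR's quasi-likelihood test, 2 of the 48 genes were higher in LPS + Tan, Cdt1 and Cdc6 (4.17%), beside 2.87% of all tested genes. None of the 48 was lower at that p, beside 2.25% of all tested genes. At the study's thresholds, an unadjusted p below 0.05 with a log2 fold change beyond 1 in either direction, 0 of the 48 passed, beside 0.35% of tested genes higher and 0.299% lower. After Benjamini-Hochberg adjustment over all 15706 genes, edgeR called 0 genes (0.0%), although 451 were higher and 353 lower at the unadjusted p, and the lowest adjusted p of the 48 was 0.922. DESeq2 called 35 genes at an adjusted p below 0.05, with 0 of the 48 among them. Every LPS + Tan sample lay above every LPS sample for 1 of the 48 genes, Cdt1 (2.08%), beside 1.58% of tested genes, and the reverse held for 0 of the 48, beside 1.15%. Leaving out 1 sample at a time moved the number higher at an unadjusted p below 0.05 to 7 without LPS replicate 4, 6 without LPS + Tan replicate 2, 4 without LPS + Tan replicate 4 and 1 without LPS + Tan replicate 1. In the same fits, 2.91%, 5.15%, 4.78% and 1.69% of all tested genes were higher at that p. The number with a log2 fold change above 0 was 29 without LPS replicate 2, 31 without LPS + Tan replicate 1 and 34 without LPS replicate 1. The median log2 fold change of the 48 became 0.08 without LPS replicate 1, 0.04 without LPS replicate 2, 0.29 without LPS replicate 4, and 0.03, 0.20 and 0.06 without LPS + Tan replicates 1, 2 and 3.

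**Figure D1:**
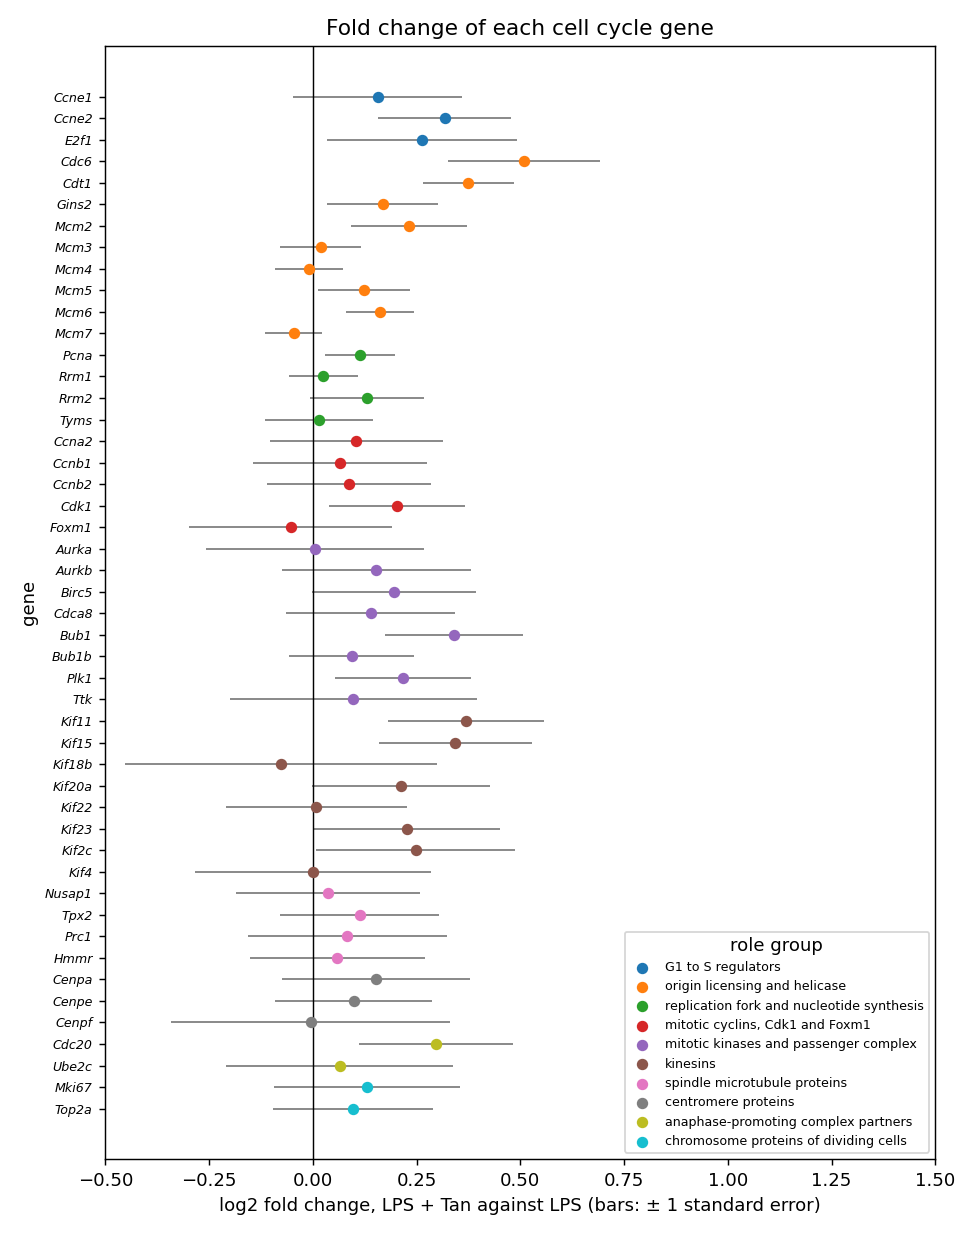
Fitted log2 fold change of LPS + Tan over LPS for each of the 48 genes, grouped by role, with error bars of 1 standard error from the edgeR fit. The values run from -0.08 to 0.51, 43 of them above 0, and the errors of most mitotic genes are wider than those of the replication genes.

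Levels per gene length differed over a wide range. Pcna, the sliding clamp that holds DNA polymerase on its template, had the highest level, with 52.2 ± 2.54 FPKM in LPS and 58.1 ± 3.51 FPKM in LPS + Tan (SD, n = 4 each). Over all 8 samples, the mean level was 14.0 FPKM for Rrm1, the large subunit of ribonucleotide reductase, 12.8 FPKM for Mcm6, 12.5 FPKM for Mcm7, 12.2 FPKM for Ube2c, 12.1 FPKM for Mcm3, 11.5 FPKM for Mcm4 and 11.3 FPKM for Top2a. Of these, Ube2c and Top2a are in the mitotic set and the others act in replication. The lowest mean levels belonged to Kif18b at 0.748 FPKM, Kif4 at 0.811 FPKM, Cenpf at 0.869 FPKM and Ttk at 0.952 FPKM, all genes of mitosis and the only 4 of the 48 below 1 FPKM. The median of the mean levels was 7.69 FPKM over the 16 replication genes and 2.67 FPKM over the 32 mitotic genes.

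**Figure D2:**
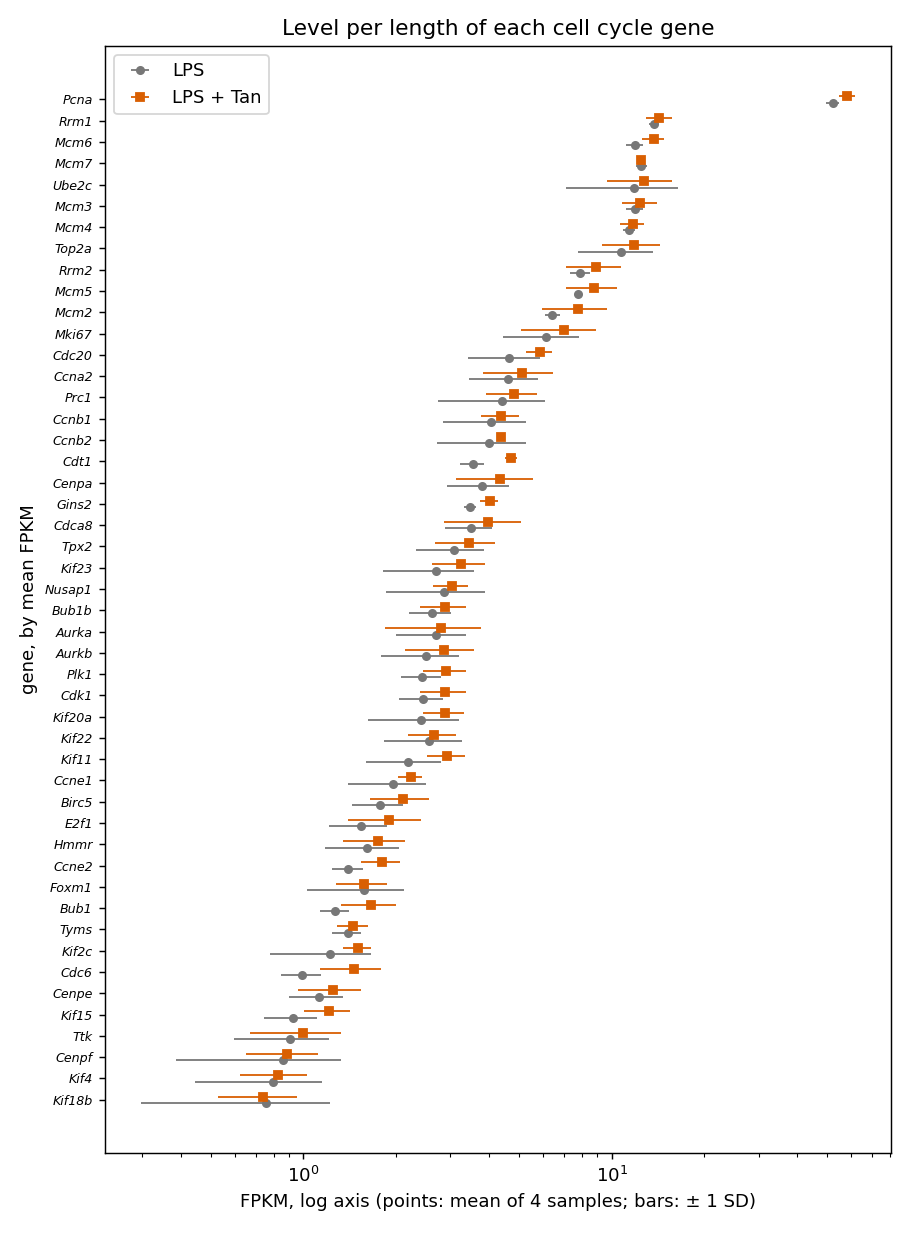
Level of each of the 48 genes in FPKM, on a log axis, with the mean of the 4 LPS and of the 4 LPS + Tan samples. Pcna has the highest level, and Kif18b, Kif4, Cenpf and Ttk lie below 1 FPKM.

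The 3 regulators of the step from G1 to S phase all had a log2 fold change above 0 (51.8% of all tested genes did). These ran from 0.16 to 0.32, with none past an unadjusted p of 0.05. Ccne1, which encodes cyclin E1, an activator of Cdk2, was at 3.40, 5.19, 4.16 and 2.70 CPM (counts scaled to the TMM-adjusted library total) in LPS replicates 1 to 4. It was at 4.55, 3.89, 4.45 and 4.31 CPM in LPS + Tan replicates 1 to 4, inside the range of the LPS samples, with a log2 fold change of 0.16 ± 0.20 (SE). Its paralog Ccne2, for cyclin E2, was at 4.50, 5.02, 5.12 and 3.94 CPM in LPS and at 6.03, 4.65, 5.62 and 6.86 CPM in LPS + Tan. Only LPS + Tan replicate 2 fell within the LPS range of Ccne2, and the log2 fold change was 0.32 ± 0.16 (SE). Ccne2 shares 17.4% of its exon bases with Ints8 on the opposite strand, and Ints8 had 14493 counts over all samples against 1645 for Ccne2, so its values are uncertain in the absence of a stated strand setting. E2f1, the transcription factor that activates S phase genes, ran from 3.42 to 5.47 CPM in LPS and from 3.71 to 7.13 CPM in LPS + Tan.

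The 9 genes of origin licensing and the replicative helicase held both genes past the unadjusted threshold. Cdc6 loads the MCM helicase onto origins, and it was at 5.04, 4.56, 5.80 and 3.91 CPM in LPS and at 8.91, 5.57, 6.66 and 6.34 CPM in LPS + Tan. Of the 4 LPS + Tan samples, only replicate 2 did not lie above every LPS sample. The log2 fold change of Cdc6 was 0.51 ± 0.18 (SE), a fold of 1.42, and over the 16 alternative settings it lay between 0.30 and 0.61. Cdt1, the partner of Cdc6 in licensing, is named here after its values were seen. It was at 7.08, 7.67, 7.97 and 8.79 CPM in LPS and at 10.5, 10.6, 9.67 and 10.1 CPM in LPS + Tan, so the groups did not overlap. Its log2 fold change was 0.37 ± 0.11 (SE), a fold of 1.30, and it lay between 0.33 and 0.43 over the 16 settings. Cdt1 stayed at an unadjusted p below 0.05 in 16 of 16 alternatives and Cdc6 in 14 of 16, the exceptions being the fits without LPS replicate 4 and without LPS + Tan replicate 1.

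The other licensing genes, subunits of the MCM helicase and of its GINS cofactor, differed little between the groups. Mcm6 had the highest level per length of them and was at 54.6, 52.6, 58.4 and 48.3 CPM in LPS and at 64.0, 59.7, 59.7 and 56.1 CPM in LPS + Tan. Only LPS + Tan replicate 4 lay within the LPS range of Mcm6, and the log2 fold change was 0.16 ± 0.08 (SE). Mcm7 was the most even of the 48, at 35.2, 37.6, 38.4 and 35.3 CPM in LPS and 35.5, 35.4, 34.7 and 36.3 CPM in LPS + Tan, with a log2 fold change of -0.05 ± 0.07 (SE). Mcm2 had a log2 fold change of 0.23, Gins2 of 0.17, Mcm5 of 0.12, Mcm3 of 0.02 and Mcm4 of -0.01. The MCM subunits form 1 hexamer, yet Mcm2 and Mcm5 varied in LPS + Tan by factors of 1.55 and 1.35 between the highest and lowest sample, against 1.05 for Mcm7. For Gins2, 67.3% of the exon bases overlap Gse1 on the opposite strand, and whether the counting used strand is not given in the sources used here, so the Gins2 value is uncertain.

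The 4 genes of the replication fork and of deoxynucleotide synthesis had log2 fold changes from 0.02 to 0.13. Pcna was at 70.3, 64.3, 70.3 and 62.3 CPM in LPS and at 74.1, 68.6, 66.4 and 80.0 CPM in LPS + Tan, with overlapping groups and a log2 fold change of 0.11 ± 0.08 (SE). Rrm2, the small and cell cycle regulated subunit of ribonucleotide reductase, was at 16.3, 17, 17.5 and 19.2 CPM in LPS and at 21.4, 14.1, 21.7 and 19.4 CPM in LPS + Tan. Its log2 fold change was 0.13 ± 0.14 (SE), and its lowest value of all was in LPS + Tan replicate 2, although the other 3 samples of that group were above every LPS sample. Tyms, the thymidylate synthase, was at 9.67, 7.70, 8.49 and 7.62 CPM in LPS and at 9.47, 7.35, 8.22 and 8.81 CPM in LPS + Tan, and its log2 fold change was 0.02 ± 0.13 (SE). Rrm1 had a log2 fold change of 0.03.

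The mitotic cyclins, Cdk1 and Foxm1 spread more widely between samples of the same group. Cdk1, the kinase that starts mitosis, was at 9.72, 9.04, 11.2 and 13.1 CPM in LPS and at 11.5, 10, 12.4 and 15.6 CPM in LPS + Tan, with a log2 fold change of 0.20 ± 0.16 (SE). Ccnb1, which encodes its partner cyclin B1, was at 6.34, 7.78, 12.7 and 11.4 CPM in LPS and at 11.1, 9.05, 10.8 and 9.07 CPM in LPS + Tan. The LPS samples of Ccnb1 thus bracketed all LPS + Tan samples, and the log2 fold change was 0.07 ± 0.21 (SE). Ccna2, for cyclin A2, ran from 12.4 to 20.8 CPM in LPS and from 12.5 to 20.5 CPM in LPS + Tan, with a log2 fold change of 0.10 ± 0.21 (SE). Foxm1, a transcription factor that activates G2 and mitotic genes, was at 4.76, 4.91, 8.91 and 9.36 CPM in LPS and at 8.17, 6.08, 6.98 and 5.69 CPM in LPS + Tan, with a log2 fold change of -0.05 ± 0.25 (SE). Ccnb2, for cyclin B2, ranged in LPS from 4.79 to 9.15 CPM and in LPS + Tan only from 6.54 to 6.76 CPM.

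The 8 mitotic kinases and chromosomal passenger proteins all had log2 fold changes above 0 (51.8% of all tested genes did), with a median of 0.15 and none past the unadjusted threshold. The sign turned in 8 of the 16 alternatives for Aurka, in 3 for Ttk and in 1 each for Aurkb and Cdca8. Bub1, a kinase of the spindle checkpoint, was at 5.45, 4.86, 5.72 and 6.38 CPM in LPS and at 8.49, 5.26, 7.49 and 7.12 CPM in LPS + Tan. Only LPS + Tan replicate 2 lay within the LPS range of Bub1, and the log2 fold change was 0.34 ± 0.17 (SE). Aurka, the Aurora kinase of the spindle poles, was at 5.17, 4.51, 6.90 and 8.04 CPM in LPS and at 6.96, 3.64, 8.29 and 5.80 CPM in LPS + Tan, with a log2 fold change of 0.01 ± 0.26 (SE). Cdca8, or borealin, of the passenger complex was at 5.75, 4.99, 5.17 and 7.13 CPM in LPS and at 8.54, 4.53, 6.44 and 5.87 CPM in LPS + Tan, with a log2 fold change of 0.14 ± 0.20 (SE). Of the others, the Polo kinase Plk1 had a log2 fold change of 0.22, the passenger protein Birc5 of 0.20, the passenger kinase Aurkb of 0.15, and the checkpoint kinases Ttk and Bub1b of 0.10 and 0.09.

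Kinesins are the motors that move along spindle microtubules. Of the 8, 7 had a log2 fold change above 0 (51.8% of all tested genes did), with a median of 0.22. The sign turned in 9 of the 16 alternatives for Kif4, in 5 for Kif18b and in 3 for Kif22. Kif11, the motor that pushes the spindle poles apart, was at 8.41, 8.16, 12.3 and 14.3 CPM in LPS and at 15.9, 12.4, 14.7 and 12.8 CPM in LPS + Tan. All LPS + Tan samples of Kif11 were above LPS replicates 1 to 3, only LPS replicate 4 overlapped them, and the log2 fold change was 0.37 ± 0.19 (SE). Kif23, a motor of the central spindle in cytokinesis, was at 6.73, 7.57, 9.96 and 13.7 CPM in LPS and at 13.4, 8.60, 11.6 and 10.8 CPM in LPS + Tan, with a log2 fold change of 0.23 ± 0.22 (SE). Kif18b, which shortens astral microtubules, was at 1.64, 1.93, 2.25 and 5.21 CPM in LPS and at 2.63, 3.28, 2.92 and 1.61 CPM in LPS + Tan, with a log2 fold change of -0.08 ± 0.38 (SE) that became 0.43 without LPS replicate 4. Kif15 had a log2 fold change of 0.34, Kif2c of 0.25, Kif20a of 0.21, Kif22 of 0.01 and Kif4 of 0.00. Kif20a shares 29.3% of its exon bases with Cdc23 and Kif4 shares 15.1% with Pdzd11, in both cases on the opposite strand, with the same uncertainty. Also on the opposite strand, Ube2c shares 22.8% with Tnnc2, which had only 9 counts, Ccna2 12.5% with Exosc9, which had 5527 counts against 5183, and Prc1 11.1% with Rccd1, which had 1147 counts against 5210. The shares of the remaining genes were at most 7.25%, that of Mcm7 with Ap4m1.

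Among the spindle and centromere genes, 6 of 7 had a log2 fold change above 0 (51.8% of all tested genes did). The sign turned in 6 of the 16 alternatives for Cenpf, in 4 for Hmmr, in 2 each for Nusap1 and Prc1 and in 1 for Cenpe. Prc1, which bundles the microtubules of the central spindle, was at 10.9, 12, 17.1 and 24.3 CPM in LPS and at 19.2, 13.4, 19.2 and 16.3 CPM in LPS + Tan, with a log2 fold change of 0.08 ± 0.24 (SE). The log2 fold change was 0.11 for Tpx2, an activator of Aurora A, 0.06 for Hmmr and 0.04 for Nusap1, both spindle proteins. Cenpa, the histone H3 variant that marks centromeres, was at 6.73, 5.55, 5.44 and 8.61 CPM in LPS and at 7.09, 4.63, 9.09 and 8.42 CPM in LPS + Tan, with a log2 fold change of 0.15 ± 0.23 (SE). Cenpf, a kinetochore protein, was at 7.06, 5.60, 9.25 and 17.7 CPM in LPS and at 11.2, 6.28, 11.5 and 10.3 CPM in LPS + Tan, so that 1 LPS sample was above all others. Cenpe, a motor of the kinetochore, had a log2 fold change of 0.10.

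Cdc20, an activator of the anaphase-promoting complex, was at 5.78, 7.75, 9.02 and 11.0 CPM in LPS and at 11.4, 9.36, 9.48 and 11.0 CPM in LPS + Tan. Replicates 1 to 3 of LPS lay below every LPS + Tan sample of Cdc20, and the log2 fold change was 0.30 ± 0.19 (SE). Ube2c, the ubiquitin-conjugating enzyme of that complex, was at 9.54, 6.36, 11.7 and 16.9 CPM in LPS and at 12.5, 8.04, 14.0 and 12 CPM in LPS + Tan, with a log2 fold change of 0.06 ± 0.27 (SE). Mki67, the antigen Ki-67 used to stain dividing cells, was at 54.2, 45.1, 71.2 and 85.9 CPM in LPS and at 84.0, 66.1, 83.2 and 47.4 CPM in LPS + Tan. Both groups of Mki67 spanned almost the same range, and its log2 fold change was 0.13 ± 0.22 (SE). Top2a, the topoisomerase that untangles chromosomes, was at 45.4, 44.9, 59.6 and 78.0 CPM in LPS and at 73.6, 47.4, 66.6 and 56.0 CPM in LPS + Tan, with a log2 fold change of 0.10 ± 0.19 (SE).

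**Figure D3:**
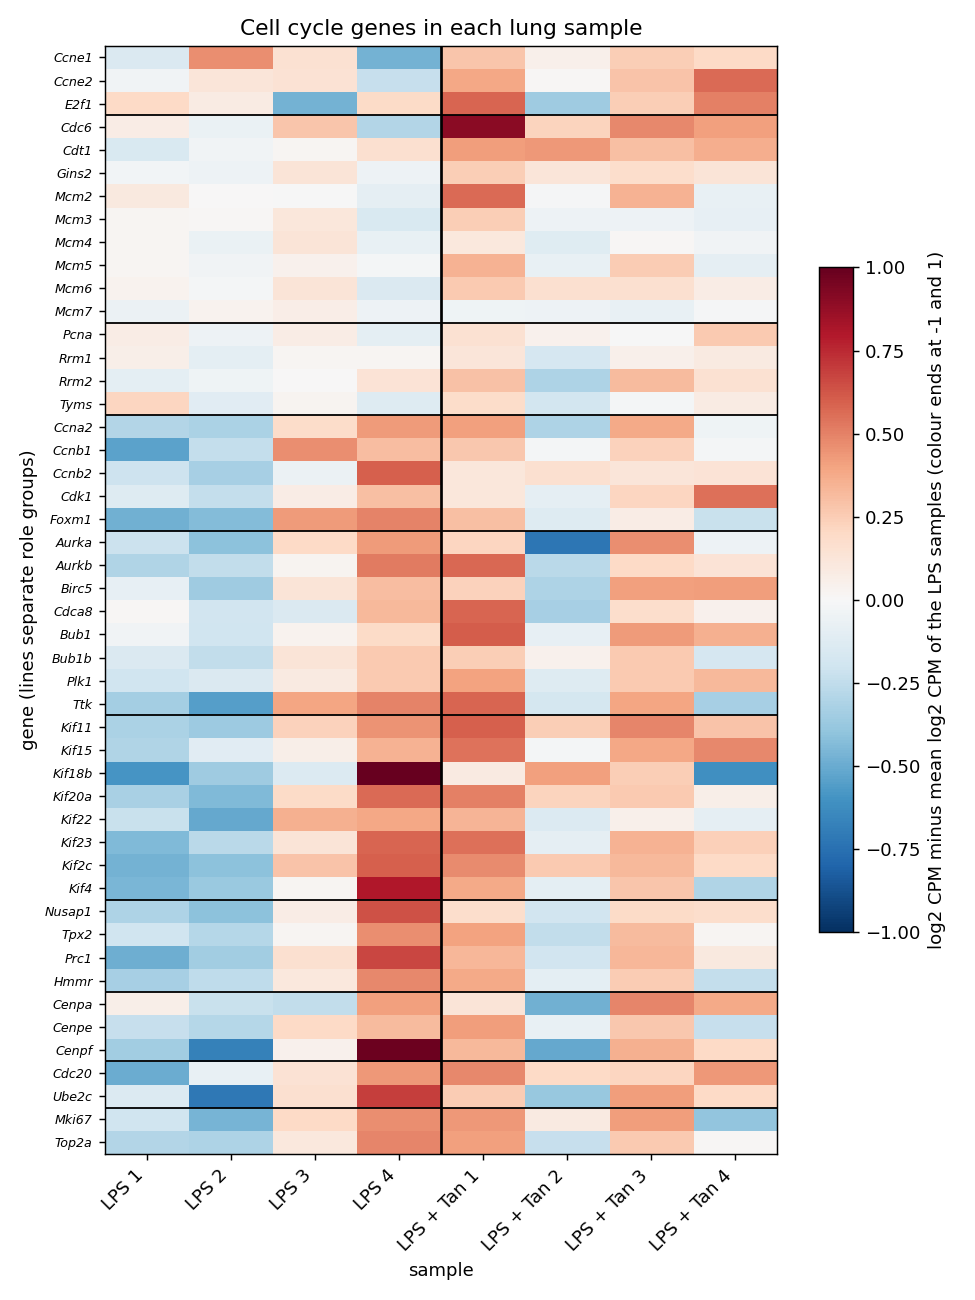
Level of each of the 48 genes in each of the 8 samples as log2 CPM relative to the mean of the LPS samples, with genes in rows by role and samples in columns. In the mitotic rows, LPS replicates 1 and 2 are low and LPS replicate 4 is high, whereas most replication rows show little contrast among the LPS samples.

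The spread between samples of 1 group was therefore the larger feature of the mitotic genes. The median SD of log2 CPM within groups was 0.35 over the 32 mitotic genes and 0.15 over the 16 replication genes, compared with 0.21 over all tested genes. Within the LPS group, the highest sample exceeded the lowest by a median factor of 1.82 over the mitotic genes, from 1.31 for Bub1 to 3.18 for Kif18b. For the replication genes the median factor was 1.19, from 1.06 for Mcm5 to 1.93 for Ccne1. Within LPS + Tan the median factors were 1.56 and 1.24.

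The mitotic genes shared their order of samples, a pattern picked out after the values were seen. LPS replicate 4 was the highest LPS sample for 31 of the 32 mitotic genes, Ccnb1 being the exception. LPS replicates 3 and 4 were both above replicates 1 and 2 for 30 of the 32 (93.8%), compared with 2 of the 16 replication genes (12.5%) and 19.7% of all tested genes. For 9 of the 16 replication genes, LPS replicate 4 was instead the lowest LPS sample. In LPS + Tan, replicates 1 and 3 were both above replicates 2 and 4 for 23 of the 32 mitotic genes (71.9%) and 8 of the 16 replication genes (50.0%), compared with 20.3% of all tested genes. LPS + Tan replicate 2 was the lowest of its group for 21 of the 32 mitotic genes and for 9 of the 16 replication genes.

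Averaged over the 32 mitotic genes, log2 CPM relative to the LPS mean was -0.28, -0.33, 0.13 and 0.49 in LPS replicates 1 to 4 and 0.37, -0.11, 0.30 and 0.06 in LPS + Tan replicates 1 to 4. The mean difference of 0.15 between the groups was smaller than the SD of 0.39 among LPS samples and of 0.22 among LPS + Tan samples. Over the 16 replication genes the values were 0.02, 0.01, 0.05 and -0.08 in LPS and 0.31, -0.02, 0.17 and 0.16 in LPS + Tan. Their mean difference was 0.16, with SDs of 0.06 and 0.14, and LPS + Tan replicate 2 was the only sample of its group within the LPS range. Neither difference was tested.

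**Figure D4:**
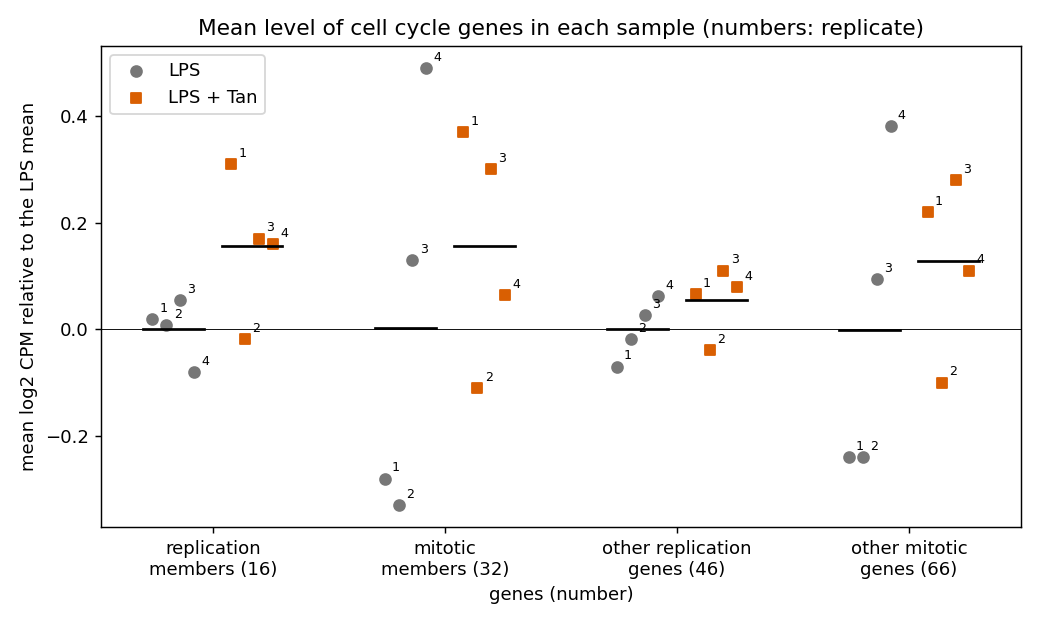
Mean log2 CPM by sample, as a difference from the average of the LPS samples. The sets are the 16 replication and 32 mitotic genes of the 48, and 46 further replication and 66 further mitosis genes. Each point is 1 sample. Among the 48 genes, the mitotic mean runs from -0.33 to 0.49 within LPS, and the replication mean stays between -0.08 and 0.05 there.

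Within-group deviations of the mitotic genes correlated with each other with a mean Pearson r of 0.75 over pairs of genes, compared with 0.34 over pairs of replication genes and 0.00062 over pairs of all tested genes. These are descriptions over 8 samples, in which all genes share the library and its scaling. The spindle proteins had a mean r of 0.91 and the kinesins of 0.83, and the E2F and cyclin E genes of 0.32.

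Markers of other cell types also differed between these samples. LPS replicates 1 to 4 had summed levels of 8884, 7823, 5951 and 5372 FPKM for the 5 alveolar type 2 markers, so that the samples with high mitotic levels had the lowest sums. The 5 alveolar macrophage markers summed to 1319, 1373, 668 and 895 FPKM in the same samples. This sum was mostly Chil3, at a mean of 899 FPKM. Chil3 and Ear2 were lowest in LPS replicate 3, and Mrc1 in LPS replicate 4. Marco was instead highest in LPS replicate 3, at 129, 133, 171 and 91.2 CPM in LPS replicates 1 to 4. Fabp1 rose from LPS replicate 1 to LPS replicate 4. The 6 erythroid markers summed to 3956, 2275, 5209 and 4622 FPKM. In LPS + Tan replicates 1 to 4, the sums were 7062, 6782, 6054 and 10220 FPKM for alveolar type 2 cells. There replicate 3, at a mitotic mean of 0.30, had the lowest of these sums, but replicate 1, at 0.37, was above replicate 2, at -0.11. Abca3 was lowest in LPS + Tan replicate 4, at 292 CPM, where the other alveolar type 2 markers were highest in that group. The LPS + Tan sums were 1116, 1139, 734 and 1418 FPKM for alveolar macrophages and 2160, 3394, 3507 and 3014 FPKM for erythroid cells. The 5 neutrophil markers summed to 7981, 6978, 9389 and 8300 FPKM in LPS. In LPS + Tan they summed to 9695, 6293, 9183 and 8907 FPKM, and replicate 2 had the lowest sum of each group. These sums were mostly S100a8 and S100a9, at a mean of 3980 and 4100 FPKM. Cxcr2 and Retnlg were also lowest in replicate 2 of LPS + Tan. Ly6g was instead highest there, at 16.4, 22.4, 18.9 and 16.1 CPM in LPS + Tan replicates 1 to 4. The 4 neutrophil precursor markers summed to 3.58, 3.82, 2.75 and 2.29 FPKM in LPS and to 3.29, 4.30, 3.05 and 2.63 FPKM in LPS + Tan. The sums ran between 7.63 and 12.4 FPKM for the 5 T cell markers and between 11.8 and 21.3 FPKM for the 4 B cell markers. They ran between 355 and 431 FPKM for the 5 fibroblast markers and between 17.3 and 28.9 FPKM for the 4 megakaryocyte and platelet markers. No marker was at 0 in any sample, and the part of these cells in the levels of the cell cycle genes was not tested.

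Promoter sequence was examined because the mitotic genes varied together. The RefSeq promoter table of build GRCm38.p6 held 40 of the 48 genes, 13 of replication and 27 of mitosis, and did not list Ccna2, Foxm1, Aurkb, Gins2, Ccne2, Tpx2, Mcm4 and Kif20a. Each window ran from 250 bases before to 50 bases after the first-listed start, and both strands were searched for the CCAAT box (CCAAT), for the CHR element (TTTGAA) and for E2F sites (TTTCCCGC, TTTCGCGC, TTTGCCGC or TTTGGCGC). A match is a description of the letters and not a test of binding, and 5 pairs of matches overlapped. The windows below are those of Mki67, 3 regulators of mitosis and 2 MCM genes, shown to compare mitotic with replication promoters. All are on the minus strand, at chr7:135716380-135716529 for Mki67, chr13:100786571-100786636 for Ccnb1, chr10:69352939-69353062 for Cdk1, chr9:70421555-70421704 for Ccnb2, chr6:88898781-88898930 for Mcm2 and chr1:20820313-20820462 for Mcm3. They lie 5′ of the annotated gene and within 150 bases of the RefSeq start, and capitals mark the matches.
Mki67: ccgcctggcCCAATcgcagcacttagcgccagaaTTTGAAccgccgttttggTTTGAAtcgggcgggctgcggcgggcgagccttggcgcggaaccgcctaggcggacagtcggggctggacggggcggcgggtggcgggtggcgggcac
Ccnb1: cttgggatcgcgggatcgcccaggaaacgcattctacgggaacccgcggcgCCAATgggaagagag
Cdk1: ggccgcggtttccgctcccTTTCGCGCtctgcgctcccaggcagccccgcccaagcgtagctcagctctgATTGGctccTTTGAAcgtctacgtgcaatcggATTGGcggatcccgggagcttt
Ccnb2: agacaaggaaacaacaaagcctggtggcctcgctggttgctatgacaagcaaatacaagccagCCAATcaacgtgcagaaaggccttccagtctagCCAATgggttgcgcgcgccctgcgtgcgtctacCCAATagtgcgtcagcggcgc
Mcm2: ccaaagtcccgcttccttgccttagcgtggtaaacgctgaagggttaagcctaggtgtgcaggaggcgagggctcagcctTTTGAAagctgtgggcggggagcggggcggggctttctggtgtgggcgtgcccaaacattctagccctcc
Mcm3: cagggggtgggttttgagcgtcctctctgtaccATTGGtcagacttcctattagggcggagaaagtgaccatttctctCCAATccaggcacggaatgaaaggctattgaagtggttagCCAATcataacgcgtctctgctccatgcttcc

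Mki67 carries 2 CHR elements, at positions -116 and -98 from the start, and Cdk1 carries, among other matches, a CCAAT box at -80 close to a CHR element at -71. Ccnb2 has 3 CCAAT boxes at -87, -54 and -21 and 2 CHR elements, at -167 and at 5 bases after the start, both outside the printed stretch. Mcm3 has 3 CCAAT boxes, at -117, -72 and -32, and its E2F sites lie after the start. Over the 27 mitotic genes, 23 windows held a CCAAT box (85.2%), 22 a CHR element (81.5%), 20 both (74.1%) and 2 an E2F site (7.41%). Over the 13 replication genes, 8 held a CCAAT box (61.5%), 1 a CHR element (7.69%), namely Mcm2, and 6 an E2F site (46.2%). Of the promoters of 12366 tested genes, 38.2% held a CCAAT box, 12.6% a CHR element, 3.72% an E2F site and 5.18% both a CCAAT box and a CHR element. The single E2F match of Cdc6 was at -138 and that of Cdt1 at 33 bases after the start. The 2 sets thus differed in these letters as well as in their spread between samples, and no test links them.

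**Figure D5:**
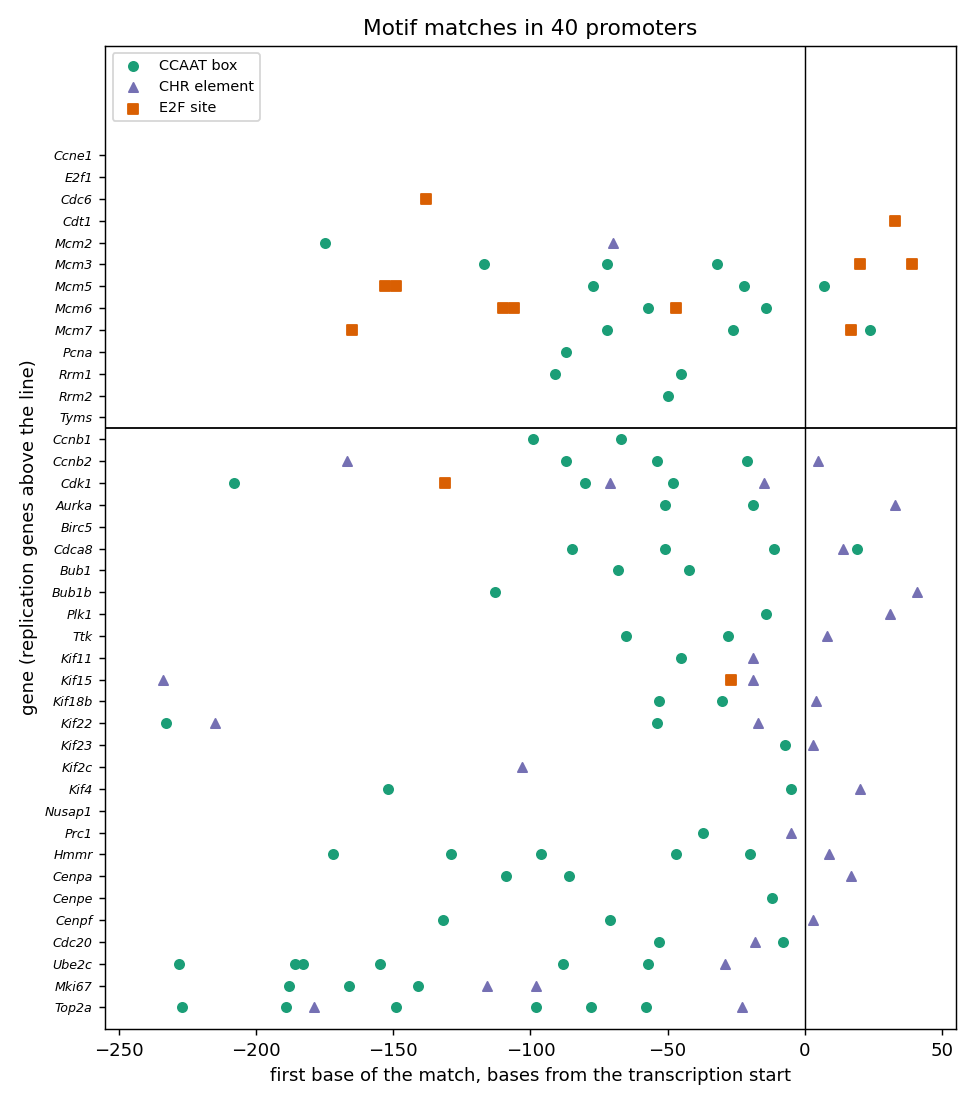
Positions of CCAAT, CHR and E2F matches relative to the RefSeq start in the promoters of 40 of the 48 genes, with 1 row per gene and distance in bases. CHR matches are in 22 of 27 mitotic rows and in 1 of 13 replication rows.

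The other cell cycle genes give the setting of these values. Of 155 further genes of the cycle that were not among the 48, 154 were tested, 0 were higher and 5 were lower in LPS + Tan at an unadjusted p below 0.05 (3.25%), beside 2.87% and 2.25% of all tested genes. The number higher became 7 without LPS replicate 4, 7 without LPS + Tan replicate 2, 6 without LPS + Tan replicate 4 and 2 without LPS replicate 3, beside 2.91%, 5.15%, 4.78% and 1.98% of all tested genes in those fits. The number lower became 9 without LPS + Tan replicate 2, and 3 without LPS replicate 3 or without LPS + Tan replicate 3, beside 5.06%, 1.71% and 1.88% of all tested genes. The lowest adjusted p among them was 0.85 in the edgeR test. All 5 act around G1 or as brakes. Of 18 tested inhibitors and brakes, 3 were lower, and of 24 genes of the G1 machinery, 2 were lower.

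Plk2, a stress-induced Polo-like kinase, was at 107, 76.7, 99.8 and 108 CPM in LPS and at 67.5, 69.9, 72.7 and 77.5 CPM in LPS + Tan, with a log2 fold change of -0.45 ± 0.11 (SE). LPS replicate 2 was the only LPS sample to overlap the LPS + Tan range. Gadd45g, a growth arrest gene, was at 40, 38.6, 47.1 and 33.6 CPM in LPS and at 17.1, 37.0, 22.7 and 27.4 CPM in LPS + Tan, with a log2 fold change of -0.61 ± 0.21 (SE). For its relative Gadd45a the log2 fold change was -0.49 ± 0.20 (SE), at an unadjusted p below 0.05 in 10 of 16 alternatives. E2f2, a partner of E2f1 in the activating E2F factors, was at 18.8, 21.9, 26.5 and 23.6 CPM in LPS and at 16.1, 19.0, 19.4 and 14.3 CPM in LPS + Tan, with a log2 fold change of -0.40 ± 0.13 (SE), whereas that of E2f1 was 0.26 ± 0.23 (SE). The D cyclins, which start G1 progression with Cdk4 and Cdk6, had log2 fold changes of -0.25 ± 0.10 (SE) for Ccnd2, past the unadjusted threshold here and in 8 of 16 alternatives, and of -0.19 ± 0.14 (SE) for Ccnd1 and -0.04 for Ccnd3, neither past it. Cdkn1a, the inhibitor p21, was at 514, 444, 488 and 546 CPM in LPS and at 347, 502, 391 and 476 CPM in LPS + Tan, and its log2 fold change of -0.22 ± 0.13 (SE) did not pass.

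Of 46 further replication genes, 34 had a log2 fold change above 0, with a median of 0.07, and of 66 further mitosis genes, 52 did, with a median of 0.11, beside 51.8% of all tested genes, and none in either list passed the unadjusted threshold. LPS replicates 3 and 4 were both above replicates 1 and 2 for 44 of the 66 mitosis genes (66.7%) and for 16 of the 46 replication genes (34.8%), beside 19.7% of all tested genes. LPS + Tan replicates 1 and 3 were both above replicates 2 and 4 for 29 of the 66 (43.9%) and 13 of the 46 (28.3%), beside 20.3% of all tested genes. LPS replicate 4 was the highest LPS sample for 55 of the 66 (83.3%) and for 18 of the 46 (39.1%), and the lowest for 8 of the 46. The mean r of within-group deviations was 0.46 over pairs of the further mitosis genes and 0.08 over pairs of the further replication genes, below the 0.75 and 0.34 of the mitotic and replication genes among the 48. The groups did not overlap, with LPS + Tan higher, for 2 of the 154 genes (1.3%, beside 1.58% of all tested genes), Lin9, a subunit of the MuvB complex, and Tk1, the thymidine kinase of S phase, both named after their values were seen.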

How the data were processed

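The authors deposited raw counts per gene and FPKM values for the same 24584 genes in 8 lung samples. The builds GRCm38 and mm10 come from the submitters' processing notes, and the aligner, the counter and the strand setting were not given in the sources used here. Groups follow the labels, and 0 columns of values had no sample. The members and all gene lists were chosen with earlier results of these data known.

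Counts were fitted with edgeR 4.0.16 in R 4.3.3 (filterByExpr, TMM, quasi-likelihood test, no covariate) over 15706 genes, with Benjamini-Hochberg adjustment over all of them. CPM values use TMM-scaled totals, and log2 CPM a prior count of 2. The SE is the log2 fold change divided by the square root of the F statistic. The fit was tested on simulated data with 200 genes changed 3-fold, which does not show how well it detects the smaller differences described here. Alternatives were DESeq2 1.42.0, RLE scaling, sample totals alone, no filter, a mean CPM of at least 1, limma 3.58.1 on log2(FPKM + 1) and log2(FPKM + 0.1), a replicate block, and fits that leave out 1 sample. The named genes are, in each of the 10 role groups, the genes with the highest mean FPKM and the highest and lowest log2 fold change, with Mki67, Top2a, Pcna, Cdk1 and Ccnb1, and of the other lists the 3 with the lowest p below 0.05, with Cdkn1a, Ccnd1 and Ccnd2. Promoters came from RefSeq (GRCm38.p6) and gene bounds and exon overlaps from GENCODE (GRCm38). The labels and the methods name different extraction and library kits. Total counts per sample lay between 38895654 and 39931970, and how much counting error and the spread between samples each add to the errors was not tested.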

Additional observations from a re-analysis of the deposited data

Results flagged for a closer look

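In 168 groups of 4 samples (each gene or group mean in each treatment), 5 had a sample far from the other 3, where chance alone flags about 1 in 20, or 8.4. The gap to the nearest sample, as a share of the whole range of the group, was 0.868 for Gins2 in LPS, with replicate 3 high, and 0.902 for Mcm3 in LPS + Tan, with replicate 1 high at 43.3 CPM beside 34.5 to 35.3 CPM. It was 0.95 for Nusap1 in LPS + Tan, with replicate 2 low at 7.45 CPM beside 9.59 to 9.72 CPM. It was 0.864 for Gadd45a in LPS, with replicate 4 low at 20.5 CPM beside 30.0 to 31.8 CPM. It was 0.879 for the mean of Cdc20 and Ube2c in LPS + Tan, with replicate 2 low.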

How the results depend on the processing

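The number of the 48 genes higher at an unadjusted p below 0.05 was 2 in the reported fit, 5 with sample totals alone, 5 with limma on log2(FPKM + 1), 4 with limma on log2(FPKM + 0.1) and 1 to 7 when 1 sample was left out, and none was lower under any setting. The share of all tested genes higher at that p was 2.87% as reported and 4.16%, 4.1% and 4.07% under those 3 settings, 2.33% with DESeq2 and 2.53% with the replicate block. For the other cell cycle genes the number higher, 0 as reported, was 2 with sample totals alone, 1 with DESeq2, 4 and 4 with limma on both FPKM scales and 0 to 7 with 1 sample left out, and the number lower, 5 as reported, was 3 to 9 with 1 sample left out. With the replicate block the other genes higher numbered 3 and the 48 still gave 2. Deviations of samples with the same number correlated weakly, at 0.123, -0.0306, -0.148 and 0.0195. These values alone do not settle whether the numbers pair the samples. The median log2 fold change of the 48 stayed above 0, from 0.03 without LPS + Tan replicate 1 to 0.29 without LPS replicate 4. The sign of 26 of the 48 log2 fold changes was kept in all 16 alternatives, and that of 22 changed in at least 1. Of the calls for other named genes, 14 were lost, 8 for Ccnd2 and 6 for Gadd45a, and 2 gained across the alternatives. The lowest count of the 48 genes in any sample was 62, and the part of counting error in their spread was not tested. The cause of these shifts was not tested.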
